A study of Mus musculus with 9 samples.

Results

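The GATA, TAL1 and RUNX lineage factors are transcription factors and cofactors that set the fate of blood cells. The 10 genes taken here were Gata1, Gata2, Gata3, Tal1, Lyl1, Lmo2, Zfpm1, Runx1, Runx2 and Runx3, chosen by gene symbol among the 55274 gene identifiers of the series. 9 of them had values, all 9 passed the filter on low values (FPKM at or above 1 in 3 or more libraries) together with 13493 genes in all, and Zfpm1, which encodes the GATA cofactor FOG1, was not analysed here.

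RNA was sequenced from mouse bone marrow cells in 3 groups of 3 libraries. The marrow came from young adult female C57BL/6J mice given 150 mg/kg of 5-fluorouracil and was harvested 4 days later, and the cells were stimulated for 48 h before retroviral transduction. Cells of the first group carried NRASG12D, a constitutively active form of the signalling protein NRAS, those of the second NUP98-NSD1, a fusion of a nuclear pore protein with a histone methyltransferase that is found in acute myeloid leukemia, and those of the third both (NUP98-NSD1+NRASG12D). All groups grew in medium with 10 ng/mL hIL-6, 6 ng/mL mIL-3 and 20 ng/mL mSCF, and all carried a retroviral MSCV vector whose own promoter is active in every transduced cell, with BFP as the marker of NRASG12D and GFP as the marker of NUP98-NSD1. Cells with an empty vector or none were not among the groups, so each comparison sets one oncogene or pair against another. The labels do not say whether replicates were separate cultures or animals, and p-values then measure only the spread between these libraries, which may be technical.

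GATA factors bind the DNA motif that gives them their name. In blood, GATA2 is known for its part in stem and progenitor cells and in mast cells, GATA1 for erythroid cells, megakaryocytes, mast cells, basophils and eosinophils, and GATA3 for T cells and innate lymphoid cells. GATA1 or GATA2 can work in a complex with TAL1 or its relative LYL1, which bind E-box motifs as partners of E proteins, and with LMO2 and LDB1, which bridge the DNA-bound factors. RUNX1, RUNX2 and RUNX3 share a DNA-binding domain and the partner CBFB. RUNX1 is needed for the first blood stem cells and is often altered in leukemia, RUNX2 is known as the factor of bone-forming cells and of some blood cells, and RUNX3 is known in T cells and some myeloid cells.

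The 3 RUNX genes carried the same stretch of sequence at their distal (P1) start, shown here because their RNA levels went different ways. The lines give 30 bases of each RefSeq promoter window (GRCm38.p6, 5′ to 3′ on the coding strand), with capitals for the longest run that all 3 windows share, which spans 18 bases and holds the motif ACCACA 2 times. It began at position 27 after the start site in Runx1, 22 in Runx2 and -136 in Runx3.
Runx1 (chr16:92826025-92826054, minus strand): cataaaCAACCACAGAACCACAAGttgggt
Runx2 (chr17:44814583-44814612, minus strand): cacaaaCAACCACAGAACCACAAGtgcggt
Runx3 (chr4:135120503-135120532, plus strand): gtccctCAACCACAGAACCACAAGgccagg

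Among 32851 RefSeq windows, each running from 250 bases before to 50 after a start site, 3 held this run of bases (0.00913%), those of Runx1, Runx2 and Runx3. The RUNX motif TGTGGT, searched on both strands, was present in 16.8% of all windows and present at least 2 times in 1.81%. The second windows of Runx1 and Runx3, at their proximal start, held no match to it.

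Of the 9 members with values, 8 had at least 1 RefSeq window (12 windows in all) and Lmo2 was not matched. Gata1, Gata2 and Tal1 are shown next because their RNA levels were lowest together in the NUP98-NSD1+NRASG12D group. Capitals mark matches to the GATA motif (the letters GATA with A or T before and A or G after, on either strand) and to the E-box CANNTG. A match is a stretch of letters and not a measured binding site.
Gata1 (chrX:7967911-7968160, minus strand): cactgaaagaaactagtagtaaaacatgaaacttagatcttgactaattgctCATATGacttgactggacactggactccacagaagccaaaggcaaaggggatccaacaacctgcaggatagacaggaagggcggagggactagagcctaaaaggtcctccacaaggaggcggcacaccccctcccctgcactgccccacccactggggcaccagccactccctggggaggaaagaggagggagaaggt
Tal1 (chr4:115056176-115056425, plus strand): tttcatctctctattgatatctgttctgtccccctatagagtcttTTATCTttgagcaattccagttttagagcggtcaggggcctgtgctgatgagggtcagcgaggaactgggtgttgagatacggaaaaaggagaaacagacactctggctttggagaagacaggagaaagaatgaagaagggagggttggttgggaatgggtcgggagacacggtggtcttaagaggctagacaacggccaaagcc
Gata2 (chr6:88198669-88198698, plus strand): tgcaggagtcggCAGCTGgcgccagggcgg

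The GATA motif was found in 2 of the 12 windows of members, at position -205 of Tal1 and 37 of Gata3, against 29.8% of all windows. The E-box was found in 9 of the 12, against 72.3% of all windows, at -198 in Gata1, 11 in Tal1 and 18 in Gata2.

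The libraries held an estimated 23550000 to 37000000 fragments, and the groups differed in the cell type markers they showed. The summed FPKM (a level corrected for the length of the transcript and the depth of the library) of 11 mast cell genes without Cpa3 ranged from 36284 to 38282 in NRASG12D, from 15611 to 20731 in NUP98-NSD1 and, with both oncogenes, from 509 to 2884. Cpa3, a mast cell protease, was listed at 0 in all 3 NRASG12D libraries, where Cma1, another mast cell protease, had an FPKM of 12715 to 16008. An exact 0 can be a failed estimate, and whether it was one here was not tested. With Cpa3 the sums were 36284 to 38282, 29024 to 35110 and 788 to 4705. The summed FPKM of 11 granulocyte and monocyte genes ran the other way, with a range from 27.2 to 36.6 in NRASG12D, from 1943 to 6548 in NUP98-NSD1 and, with both oncogenes, from 8727 to 21052. The study describes the NRASG12D culture as mostly mast cells, so a comparison with it also compares cell types. Within NUP98-NSD1+NRASG12D, replicate 2 stood apart with the highest mast cell sum and with a megakaryocyte sum of 1357, against 239 and 322 in the other libraries, and Pf4, a platelet chemokine, made up 1157 of it.

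The summed markers of T, B and erythroid cells were low beside those of mast cells. The sum of 12 T and innate lymphoid cell genes was 0.223 to 0.607 in NRASG12D, 4.85 to 12.2 in NUP98-NSD1 and, with both oncogenes, 7.12 to 33.7, and Cd3e, a chain of the T cell receptor complex, was at most 0.0354 in any library. Other genes of that list were higher with the fusion. Il7r reached 27 and Thy1 9.59, and both passed against NRASG12D in NUP98-NSD1 (adjusted p = 0.0013 and 0.0067 by limma) and in NUP98-NSD1+NRASG12D (adjusted p = 0.00992 and 0.00387 by limma). They were the 2 genes of the list that were tested, and both met the filter on low values only through libraries with the fusion. The sum of 7 B cell genes was at most 10.5. That of 12 erythroid genes was at most 112, in NUP98-NSD1 replicate 2, where Hbb-bt, a haemoglobin gene, was 48.7. In bulk RNA, fewer cells of a type and less RNA per cell cannot be told apart, which holds for every level below.

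**Figure D1:**
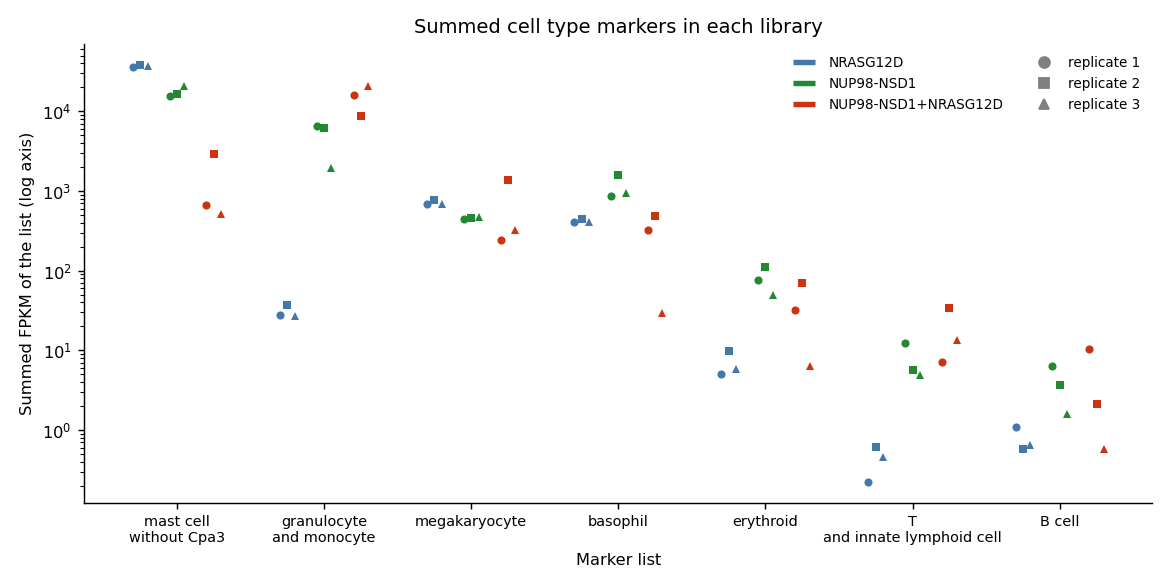
Summed FPKM of 7 marker lists in each library (log axis), coloured by group, with one symbol for each replicate number. The mast cell sum without Cpa3 was lowest in NUP98-NSD1+NRASG12D (509 to 2884) and the granulocyte and monocyte sum was lowest in NRASG12D (27.2 to 36.6).

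Gata1 (chrX:7959260-7978071, minus strand) was high in NRASG12D, intermediate in NUP98-NSD1 and low with both oncogenes. Its FPKM was 116, 104 and 108 in NRASG12D, 59.3, 67.5 and 78.5 in NUP98-NSD1 and 3.74, 12.6 and 1.22 in NUP98-NSD1+NRASG12D. No 2 groups overlapped, and the lowest value corresponded to an estimated 51 fragments. Changes below are differences of mean log2(FPKM + 1), with p-values adjusted over all tested genes. Against NRASG12D, Gata1 fell by 0.67 on this scale in NUP98-NSD1 (SE 0.11, adjusted p = 0.00358 by limma) and by 4.40 in NUP98-NSD1+NRASG12D (SE 0.59, adjusted p = 0.00162 by limma). Between NUP98-NSD1+NRASG12D and NUP98-NSD1 it fell by 3.72 (SE 0.60, adjusted p = 0.016 by limma), or 13.2-fold on that scale.

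Gata2 (chr6:88193891-88207032, plus strand) was the most abundant of the 9 members by mean FPKM in NRASG12D and in NUP98-NSD1. Its FPKM was 383, 492 and 450 in NRASG12D, 304, 349 and 480 in NUP98-NSD1 and 25.6, 59.5 and 6.47 in NUP98-NSD1+NRASG12D. The first groups overlapped and the third lay below both. The log2 change from NRASG12D to NUP98-NSD1 was -0.24 (SE 0.18, adjusted p = 0.286 by limma). It passed without NUP98-NSD1 replicate 3, at -0.43 (adjusted p = 0.0286 by limma), and with array weights, at -0.34 (adjusted p = 0.0483 by limma), and it was -0.55 after median-ratio scaling (adjusted p = 0.0663 by limma). Gata2 fell by 4.26 in NUP98-NSD1+NRASG12D against NRASG12D (adjusted p = 0.00331 by limma) and fell by 4.02 against NUP98-NSD1 (adjusted p = 0.02 by limma). In the group with both oncogenes, Lyl1, Lmo2 and Runx1 had a higher mean FPKM than Gata2, at 142, 104 and 34.5 against 30.5, and the replicate ranges of Gata2 and Runx1 overlapped.

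Gata3 (chr2:9857078-9890034, minus strand) was the least abundant GATA member in every group. Its FPKM was 2.61, 3.3 and 2.55 in NRASG12D, 5.7, 4.21 and 5.8 in NUP98-NSD1 and 0.818, 1.76 and 0.982 in NUP98-NSD1+NRASG12D. Gata3 differed from Gata1 and Tal1 in its order, since it was highest in NUP98-NSD1. It rose there by 0.70 on the log2 scale against NRASG12D (SE 0.15, adjusted p = 0.00808 by limma), fell by 0.82 in NUP98-NSD1+NRASG12D against NRASG12D (adjusted p = 0.0225 by limma) and fell by 1.52 against NUP98-NSD1 (adjusted p = 0.012 by limma). The rise was 0.37 after quantile normalization, with an adjusted p of 0.0864 by limma.

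Gata2 supplied most of the summed level of the GATA family in every library, and the sum was lowest in NUP98-NSD1+NRASG12D. The summed FPKM of Gata1, Gata2 and Gata3 was 502, 599 and 561 in NRASG12D, 369, 421 and 564 in NUP98-NSD1 and 30.2, 73.9 and 8.67 in NUP98-NSD1+NRASG12D. Gata2 supplied 79.6% ± 2.95 (SD, n = 3), 83.5% ± 1.41 and 80% ± 5.14 of it. The share of Gata1 was 19.9% ± 2.96 in NRASG12D, 15.3% ± 1.24 in NUP98-NSD1 and 14.5% ± 2.37 in NUP98-NSD1+NRASG12D. The share was lower in both groups with the fusion than in any NRASG12D library (two-sided exact permutation p = 0.1 for each, the smallest that 3 against 3 libraries allow), and between those groups it differed by -0.832 percentage points (exact permutation p = 0.7). Gata3 was 11.3% of the sum in replicate 3 of NUP98-NSD1+NRASG12D, where Gata1 and Gata2 were lowest, and at most 2.71% in the other 8 libraries.

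Tal1 (chr4:115056426-115071755, plus strand) followed the order of Gata1. Its FPKM was 120 in each NRASG12D library, 64.5, 72.4 and 91.3 in NUP98-NSD1 and 11.1, 16 and 1.43 in NUP98-NSD1+NRASG12D, with no overlap between groups. It fell by 0.67 on the log2 scale in NUP98-NSD1 against NRASG12D (SE 0.13, adjusted p = 0.00547 by limma), by 3.93 in NUP98-NSD1+NRASG12D against NRASG12D (SE 0.67, adjusted p = 0.00428 by limma) and by 3.26 against NUP98-NSD1 (SE 0.68, adjusted p = 0.0335 by limma). With a pseudocount of 0.1 the last adjusted p was 0.0536.

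Lyl1 (chr8:84701449-84704940, plus strand), the closest relative of Tal1 among the members, passed the test in none of the comparisons. Its FPKM was 109, 112 and 112 in NRASG12D, 105, 99.5 and 78.1 in NUP98-NSD1 and 150, 92.7 and 183 in NUP98-NSD1+NRASG12D. The log2 changes were -0.25 (adjusted p = 0.114), 0.30 (adjusted p = 0.38) and 0.54 (adjusted p = 0.293, all by limma), with an SE of 0.12, 0.25 and 0.28. Without replicate 2 of NUP98-NSD1+NRASG12D, the library with the highest mast cell sum of its group, the change against NRASG12D was 0.57 with an adjusted p of 0.0237. The change in NUP98-NSD1 against NRASG12D was -0.56 after median-ratio scaling (adjusted p = 0.00338) and after quantile normalization (adjusted p = 0.00342), both by limma.

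The balance between Tal1 and Lyl1 is given as a description, added after the values were seen and with no test. Tal1 supplied 52.5%, 51.7% and 51.6% of their summed FPKM in NRASG12D, 38.1%, 42.1% and 53.9% in NUP98-NSD1 and 6.9%, 14.7% and 0.775% in NUP98-NSD1+NRASG12D. The first groups overlapped and the third lay below both. Their sum was 229 to 232 in NRASG12D, 169 to 172 in NUP98-NSD1 and, with both oncogenes, 109 to 185.

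Lmo2 (chr2:103957986-103981878, plus strand), the bridging cofactor, went the other way from Gata1 and Tal1. Its FPKM was 17, 24.2 and 20.3 in NRASG12D, 75.1, 92.6 and 41.5 in NUP98-NSD1 and 120, 82.3 and 109 in NUP98-NSD1+NRASG12D. Every library with the fusion lay above every library without it. Lmo2 rose by 1.66 on the log2 scale in NUP98-NSD1 (SE 0.28, adjusted p = 0.00381 by limma) and by 2.28 in NUP98-NSD1+NRASG12D (SE 0.20, adjusted p = 3.26e-04 by limma), both against NRASG12D. Between the groups with the fusion, which overlapped, the difference was 0.62 (SE 0.32, adjusted p = 0.291 by limma).

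**Figure D2:**
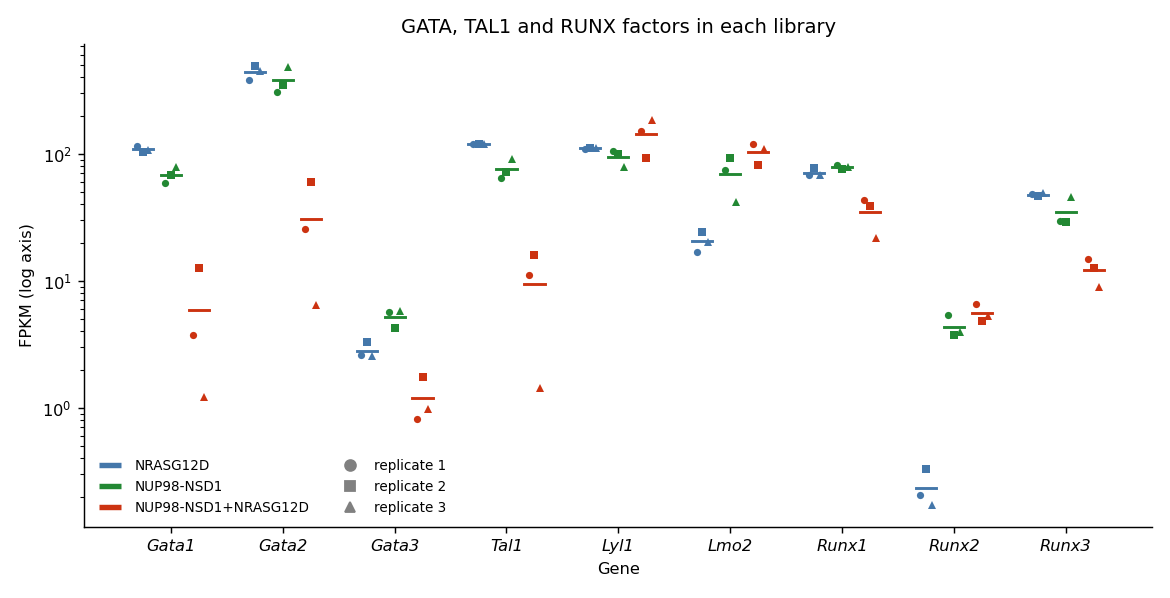
FPKM of the 9 measured members in each library (log axis), coloured by group, with one symbol for each replicate number and a bar at the group mean. Gata1, Gata2 and Tal1 spread most within NUP98-NSD1+NRASG12D, where replicate 2 is highest and replicate 3 lowest, while Lmo2 and Runx2 are lowest in NRASG12D (20.5 and 0.235 on average).

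Runx1 (chr16:92601466-92826149, minus strand) overlapped between the groups with 1 oncogene and was lower with both. Its FPKM was 67.7, 77.7 and 68.1 in NRASG12D, 82, 76.4 and 78.2 in NUP98-NSD1 and 43.1, 38.5 and 21.8 in NUP98-NSD1+NRASG12D. It fell by 1.08 on the log2 scale in NUP98-NSD1+NRASG12D against NRASG12D (SE 0.26, adjusted p = 0.0174 by limma) and by 1.23 against NUP98-NSD1 (SE 0.26, adjusted p = 0.0347 by limma). Between NUP98-NSD1 and NRASG12D the difference was 0.15 (SE 0.08, adjusted p = 0.175 by limma), and it was -0.16 after median-ratio scaling or quantile normalization.

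Runx2 (chr17:44495987-44814797, minus strand) was near 0 without the fusion and present with it. Its FPKM was 0.204, 0.33 and 0.172 in NRASG12D, 5.39, 3.76 and 3.94 in NUP98-NSD1 and 6.6, 4.8 and 5.32 in NUP98-NSD1+NRASG12D. The level that 3 fragments would give, taking the longest transcript, was 0.0128 to 0.0202, and the low values in NRASG12D corresponded to an estimated 26 or more fragments. Runx2 rose by 2.11 in NUP98-NSD1 (SE 0.15, adjusted p = 2.30e-04 by limma) and by 2.40 in NUP98-NSD1+NRASG12D (SE 0.18, adjusted p = 1.68e-04 by limma) against NRASG12D, on a scale that understates the change of a low gene. With a pseudocount of 0.1 the changes were 3.74 and 4.10. Runx2 met the filter on low values only through libraries with the fusion. The groups with the fusion overlapped and differed by 0.30 (SE 0.20, adjusted p = 0.437 by limma).

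Part of the Runx2 exons lies under an antisense gene, Runx2os1, which shares 5.87% of them, and without a stated strand setting reads of the pair cannot be told apart there. The mean FPKM of Runx2os1 was 0.0617 in NRASG12D, 0.664 in NUP98-NSD1 and 1.15 in NUP98-NSD1+NRASG12D. Of the 50-base stretches of the Runx2 transcripts, 5.66% occurred in another gene, against 2.22% for Gata3 and at most 1.13% for the other members.

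Runx3 (chr4:135120652-135177990, plus strand) was highest in NRASG12D. Its FPKM was 48.1, 46.2 and 49.2 in NRASG12D, 29.8, 29.2 and 45.4 in NUP98-NSD1 and 14.9, 12.5 and 8.97 in NUP98-NSD1+NRASG12D. It fell by 1.92 on the log2 scale in NUP98-NSD1+NRASG12D against NRASG12D (SE 0.20, adjusted p = 5.38e-04 by limma) and fell by 1.45 against NUP98-NSD1 (SE 0.25, adjusted p = 0.0202 by limma). The drop of 0.48 in NUP98-NSD1 against NRASG12D (adjusted p = 0.047 by limma) sat just inside the threshold, and 5 of the 6 fits that left out 1 library lost it, with adjusted p up to 0.15. Replicate 3 of NUP98-NSD1, at 45.4, was close to the lowest NRASG12D library, at 46.2, and the fit without it was the one that kept the call.

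The total of the RUNX family was lower in NUP98-NSD1+NRASG12D and overlapped between the other groups. The shares of Runx2 and Runx3 also differed between groups, with no test. The summed FPKM of Runx1, Runx2 and Runx3 was 116, 124 and 118 in NRASG12D, 117, 109 and 128 in NUP98-NSD1 and 64.6, 55.7 and 36.1 in NUP98-NSD1+NRASG12D. Runx2 was 0.196% ± 0.0622 (SD, n = 3) of the sum in NRASG12D, 3.71% ± 0.792 in NUP98-NSD1 and 11.2% ± 3.18 in NUP98-NSD1+NRASG12D, and the share of Runx3 was 40.2% ± 2.59, 29.2% ± 5.55 and 23.4% ± 1.29. Runx1 supplied the most in every library, at 59.6% ± 2.53, 67% ± 4.98 and 65.4% ± 4.48, and the share of Runx1 overlapped between all groups (two-sided exact permutation p = 0.2 for each group with the fusion against NRASG12D and 0.5 between them).

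**Figure D3:**
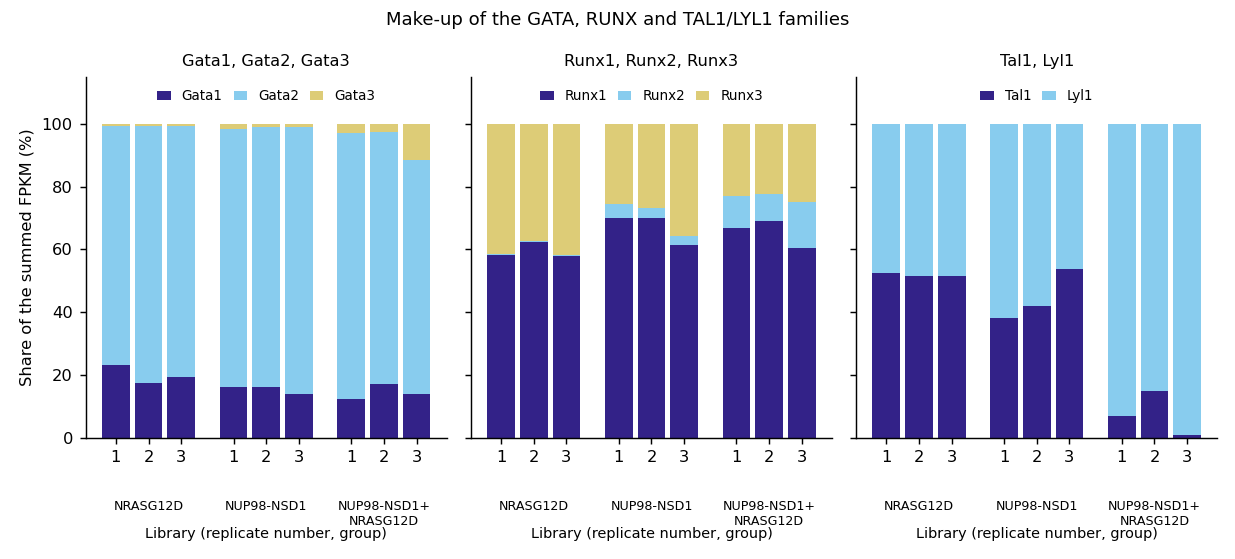
Share of each gene in the summed FPKM of its family, with one stacked bar for each library and the libraries ordered by group and replicate number. Gata2 makes up most of the GATA sum in every library, Runx2 is at most 0.266% of the RUNX sum in NRASG12D, and Tal1 is 0.775% to 14.7% of the Tal1 and Lyl1 sum in NUP98-NSD1+NRASG12D.

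In NUP98-NSD1 against NRASG12D, 6 of the 9 members passed the test, where 52.1% of all tested genes did. Gata3, Lmo2 and Runx2 were higher (3 of 9, against 42.2% of all genes), and Gata1, Tal1 and Runx3 were lower (3 of 9, against 9.98%). In this comparison and the next, Runx2 counts through a filter that it met only in libraries with the fusion. The groups did not overlap for 7 members, against 64.2% of all genes. The median log2 change of the members was -0.24 and that of all tested genes 0.27, so that relative to the median gene Gata1 changed by -0.95, Tal1 by -0.94 and Lmo2 by 1.39. Of the called genes 80.9% were higher in the main scaling, 52.5% after median-ratio scaling and 43.2% after quantile normalization. When all 9 libraries shared 1 estimate of the spread, 3 members passed, and Gata1 and Tal1 were lost with adjusted p of 0.345 and 0.413 by limma.

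In NUP98-NSD1+NRASG12D against NRASG12D, 8 of the 9 members passed, where 38.3% of all tested genes did. Lmo2 and Runx2 were higher (2 of 9, against 24.2% of all genes) and Gata1, Gata2, Gata3, Tal1, Runx1 and Runx3 were lower (6 of 9, against 14.1%), and the groups did not overlap for 8 members, against 58.6% of all genes. The median log2 change was -1.08 over the members and 0.23 over all tested genes. Of the called genes 63.1% were higher in the main scaling, against 51.8% after median-ratio scaling and 41.3% after quantile normalization. Gata1, Gata2, Tal1, Lmo2, Runx2 and Runx3 passed in all 6 fits that left out 1 library, while Gata3 passed in 2 of them and Runx1 in 3.

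In NUP98-NSD1+NRASG12D against NUP98-NSD1, 6 of the 9 members passed, where 8.61% of all tested genes did. All 6 were lower (against 6.31% of all genes), none was higher by limma (against 2.3%), also at an unadjusted p under 0.05, and the groups did not overlap for 6 members, against 31.4% of all genes. They were Gata1, Gata2, Gata3, Tal1, Runx1 and Runx3, and the median log2 change was -1.45 over the members and -0.06 over all tested genes. These calls depended on the libraries in the fit. Without NUP98-NSD1 replicate 1, 2 or 3 it called 0, 1 and 0 members and 417, 302 and 283 genes in all, against 1162 in the full fit. Without NUP98-NSD1+NRASG12D replicate 1, 2 or 3 it called 6, 5 and 5 members and 2509, 1078 and 494 genes. With no filter on low values it called 0 members and 169 genes. In that fit and in the 3 without a NUP98-NSD1 library the same 6 members were lower at an unadjusted p under 0.05 by limma. The log2 changes themselves moved less, with that of Gata1 between -4.41 and -3.10 and that of Tal1 between -3.81 and -2.41 when 1 library was left out. The comparisons share libraries in pairs, so their values are side by side and not independent of each other.

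**Figure D4:**
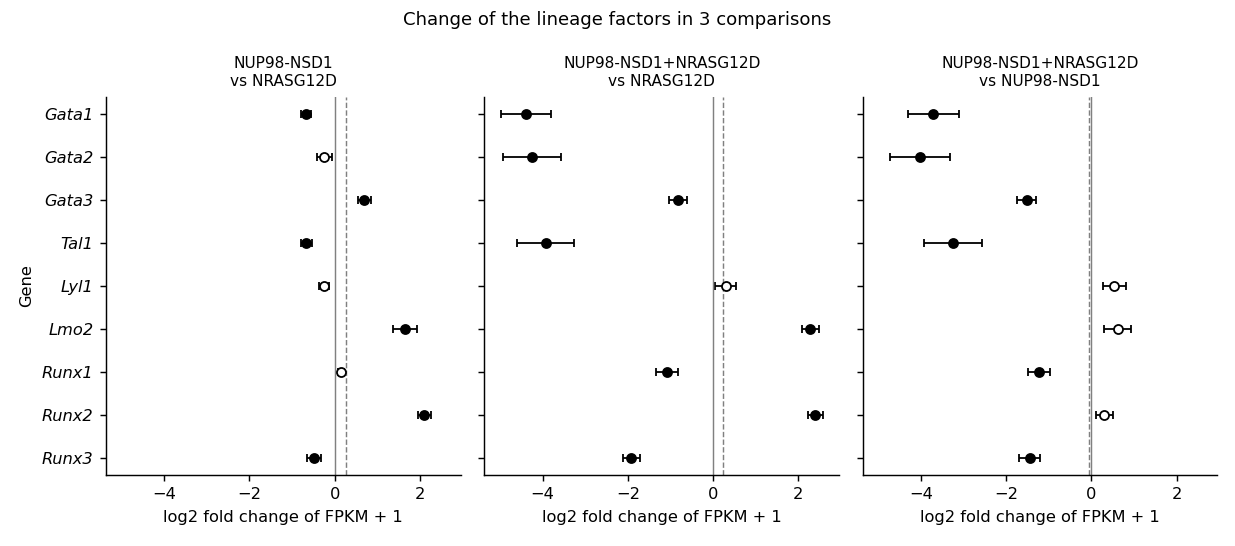
Log2 change of FPKM + 1 with its standard error (horizontal bars) for the 9 members in the 3 comparisons. Filled points passed an adjusted p of 0.05, the solid line marks 0 and the dashed line the median of all tested genes (0.27, 0.23 and -0.06), and Gata1, Gata2 and Tal1 lie farthest to the left where NUP98-NSD1+NRASG12D is compared.

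Most mast cell genes moved with Gata1 and Tal1, and with Gata2 where NUP98-NSD1+NRASG12D was compared. The part of mast cell RNA in these results was not tested. Of 12 mast cell genes, 7 were lower and 3 higher in NUP98-NSD1 against NRASG12D, 10 lower and 2 higher in NUP98-NSD1+NRASG12D against NRASG12D, and 9 lower and none higher in NUP98-NSD1+NRASG12D against NUP98-NSD1 (by limma, and none higher at an unadjusted p under 0.05). The genes that were higher were Cpa3, Mcpt4 and Hdc in the first comparison and Cpa3 and Hdc in the next, all of mast cell granules or of histamine synthesis. Cpa3 counts as higher through its listed 0 in NRASG12D, and without it the genes that were higher were Mcpt4 and Hdc in the first comparison and Hdc in the next. Over all tested genes, 9.98%, 14.1% and 6.31% were lower and 42.2%, 24.2% and 2.3% higher in the 3 comparisons. Kit, the receptor for stem cell factor, had an FPKM of 982, 1119 and 1049 in NRASG12D, 387, 382 and 561 in NUP98-NSD1 and 36, 70.7 and 8.27 in NUP98-NSD1+NRASG12D. In the last group its order was that of Gata1, Gata2 and Tal1, with replicate 2 highest and replicate 3 lowest.

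Markers of the other lineages that use GATA1 moved less uniformly. Itga2b, the integrin chain of megakaryocytes that mast cell progenitors also carry, had an FPKM of 479, 558 and 493 in NRASG12D, 209, 205 and 276 in NUP98-NSD1 and 11.6, 50.1 and 4.43 in NUP98-NSD1+NRASG12D. Pf4 ran the other way, at 0.187 to 3.96, 22.2 to 32.7 and 62.8 to 1157. Of 6 tested erythroid genes, 5 were higher in NUP98-NSD1 than in NRASG12D and Epor, the erythropoietin receptor, was lower in NUP98-NSD1+NRASG12D than in NRASG12D, where none of the 6 was higher by limma and 4 were at an unadjusted p under 0.05. Klf1, an erythroid factor, was 0.115 to 0.509 in NRASG12D, 1.2 to 2.99 in NUP98-NSD1 and, with both oncogenes, 0.484 to 0.663. Klf1 and the haemoglobin genes Hba-a1, Hba-a2 and Hbb-bs met the filter on low values through libraries with the fusion, so the erythroid counts are partly set by it. The summed FPKM of 3 basophil genes was 406 to 447 in NRASG12D, 858 to 1603 in NUP98-NSD1 and, with both oncogenes, 29.2 to 487, and that of 6 eosinophil genes was 2.08 to 2.57, 9.14 to 41.2 and 5.42 to 230 in the same order. The basophil genes did not move together. Cd200r3 made up 352 to 429 of the sum in NRASG12D and fell by 1.07 on the log2 scale in NUP98-NSD1. Mcpt8 and Prss34 rose there, from means of 38.7 and 1.01 to means of 752 and 204. The eosinophil genes diverged too. Il5ra, with a mean of 1.88 in NRASG12D, had a log2 change of -1.21 in NUP98-NSD1+NRASG12D against NRASG12D (adjusted p = 0.00447 by limma). Prg2 and Siglecf, which met the filter on low values only through libraries with the fusion, were higher there. The sum of 230 was that of replicate 2, where Prg2 was 196. All 11 granulocyte and monocyte genes were higher in both groups with the fusion than in NRASG12D. Only Ctsg reached an FPKM of 1 in every NRASG12D library. The others met the filter on low values through libraries with the fusion, where they were high, so that count is partly set by the filter. Of all tested genes, 42.2% were higher in NUP98-NSD1 and 24.2% in NUP98-NSD1+NRASG12D.

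Partners and antagonists of the members were read from a list of 22 genes, of which 21 had values and 20 were tested. In NUP98-NSD1 against NRASG12D 9 were higher and 1 lower, where 42.2% of all tested genes were higher and 9.98% lower. In NUP98-NSD1+NRASG12D against NRASG12D 4 were higher and 4 lower, beside 24.2% and 14.1% of all tested genes. In NUP98-NSD1+NRASG12D against NUP98-NSD1 none was higher and 1 lower by limma, beside 2.3% and 6.31%, with 4 higher and 6 lower at an unadjusted p under 0.05. The counts of the list depended on scaling. The first was 6 higher and 6 lower after median-ratio scaling and 5 higher and 6 lower after quantile normalization, the second 4 higher and 5 lower or 4 higher and 8 lower, and the third 1 higher and none lower or 1 higher and 1 lower. The median log2 change of the list was 0.30, -0.06 and -0.29, beside 0.27, 0.23 and -0.06 over all tested genes.

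Ldb1 and Cbfb, shared partners in these complexes, passed no test in the main scaling. Of the Ssbp genes of the list, Ssbp2 passed in NUP98-NSD1 against NRASG12D, at 1.71 (adjusted p = 0.00122 by limma). After median-ratio scaling it was 1.41 (adjusted p = 0.0014 by limma). Ssbp4 passed there at 0.30 (adjusted p = 0.0349 by limma), a change that was -0.01 after median-ratio scaling. Ssbp3 passed in no comparison in the main scaling. Ldb1, which LMO2 binds, had a mean FPKM of 5.57 ± 0.587 (SD, n = 3) in NRASG12D, 7.13 ± 1.36 in NUP98-NSD1 and 6.03 ± 1.24 in NUP98-NSD1+NRASG12D. Cbfb, the partner of the RUNX proteins, had a mean of 19.7 ± 2.96, 24.4 ± 4.29 and 14.7 ± 3.3, with adjusted p of 0.17, 0.154 and 0.101 by limma in the 3 comparisons. Cbfb did pass in NUP98-NSD1+NRASG12D against NRASG12D after the other scalings, with a log2 change of -0.63 after median-ratio scaling (adjusted p = 0.0309 by limma) and -0.68 after quantile normalization (adjusted p = 0.0218 by limma). The ratio of Lmo2 to Ldb1 FPKM, added after the values were seen, was 2.76, 4.32 and 4.09 in NRASG12D, 9.52, 11.7 and 7.45 in NUP98-NSD1 and 16.2, 14.4 and 22 in NUP98-NSD1+NRASG12D.

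The dimer partners of TAL1 and LYL1 changed in part. Tcf4, an E protein gene, had an FPKM of 1.96, 2.17 and 1.67 in NRASG12D, 14.2, 12.6 and 9.64 in NUP98-NSD1 and 26.4, 25.5 and 17.1 in NUP98-NSD1+NRASG12D. It rose by 2.15 and 3.01 against NRASG12D (adjusted p = 2.28e-04 and 1.42e-04 by limma). Tcf3, which encodes E2A, rose by 0.53 in NUP98-NSD1 (adjusted p = 0.0222 by limma), a change that was 0.23 after median-ratio scaling (adjusted p = 0.228 by limma), and Tcf12 passed in no comparison. The inhibitors of E proteins diverged. Id1 was 0.677, 6.9 and 1.16 in NRASG12D, 69.2, 56.2 and 25.7 in NUP98-NSD1 and 119, 91.5 and 156 in NUP98-NSD1+NRASG12D (adjusted p = 0.00277 and 6.44e-04 against NRASG12D by limma). Against NRASG12D, Id3 rose by 1.12 in NUP98-NSD1 (adjusted p = 0.009 by limma), and its change of 1.02 in NUP98-NSD1+NRASG12D did not pass (adjusted p = 0.319 by limma). Id2 fell by 1.61 in NUP98-NSD1+NRASG12D against NRASG12D (adjusted p = 0.00856 by limma), from a mean of 548 to one of 190. In NUP98-NSD1 against NRASG12D its log2 change was -0.47 (adjusted p = 0.0488 by limma), with replicates that overlapped. After median-ratio scaling that change was -0.78 (adjusted p = 0.0158 by limma).

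Factors known to oppose or accompany GATA1 also differed. Spi1, which encodes the myeloid factor PU.1 that GATA1 antagonises, had an FPKM of 76.4, 81.3 and 72.6 in NRASG12D, 192, 157 and 108 in NUP98-NSD1 and 269, 235 and 274 in NUP98-NSD1+NRASG12D. It rose by 0.94 and 1.74 against NRASG12D (adjusted p = 0.00745 and 2.48e-04 by limma). Gfi1, a transcriptional repressor needed for granulocyte development, rose by 0.82 and 1.51 (adjusted p = 0.0242 and 6.02e-04 by limma) from a mean of 0.508, the first of which was 0.28 after quantile normalization (adjusted p = 0.422 by limma). Gfi1 met the filter on low values only through libraries with the fusion. Its relative Gfi1b, which acts in erythroid cells and megakaryocytes, fell by 2.30 in NUP98-NSD1+NRASG12D against NRASG12D (adjusted p = 0.0121 by limma). Erg, an ETS factor of stem cells, was 20.1 to 21.9 in NRASG12D, 18.9 to 24.2 in NUP98-NSD1 and, with both oncogenes, 3.22 to 10.1, and it was the 1 gene of the list that passed in the main scaling in NUP98-NSD1+NRASG12D against NUP98-NSD1 (log2 change -1.53, adjusted p = 0.0484 by limma, and 0.0623 after median-ratio scaling). Tcf4, which encodes an E protein, had a log2 change of 0.86 there (adjusted p = 0.0643 by limma), 0.94 after median-ratio scaling (adjusted p = 0.0466) and 0.92 after quantile normalization (adjusted p = 0.0365).

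Of 7 further family members, Gata4, Gata5, Gata6, Zfpm2, Tal2 and Lmo3 did not pass the filter on low values, with no library above 0.252. Lmo1, a relative of Lmo2 known as an oncogene of T cell leukemia, was listed at 0 in the NRASG12D libraries and was 2.76, 2.88 and 0.798 in NUP98-NSD1 and 9.94, 2.46 and 1.91 in NUP98-NSD1+NRASG12D. It passed against NRASG12D in both (adjusted p = 0.00519 and 0.0106 by limma), but it met the filter on low values only through libraries with the fusion. An exact 0 can be a failed estimate, and whether the 0 of Lmo1 was one was not tested. In the libraries with the fusion Lmo1 stayed well below Lmo2 per length.

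The genes with the most similar profile to each member were found among 10867 other protein-coding genes by the root mean square difference of centred log2 values over the 9 libraries. For Gata1 they were Akr1c12 (0.19), Cd200r3 (0.23), a receptor of basophils and mast cells, and Lat (0.26), an adaptor of T cell and mast cell receptor signalling, beside a root mean square of 2.03 of the profile of Gata1 itself. Gata2 was nearest to Scin (0.25), Akr1c12 (0.34) and Gnb4 (0.38), and Tal1 to Tespa1 (0.20), Gimap1 (0.30) and Ptger3 (0.31), a prostaglandin receptor. Akr1c12 was thus near both Gata1 and Gata2, with a mean FPKM of 437 in NRASG12D, 305 in NUP98-NSD1 and 26.9 in NUP98-NSD1+NRASG12D.

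Members that ran the other way had other neighbours. Lmo2 was nearest to Pik3r2 (0.10), Rab5if (0.15) and Selenom (0.16), and Runx2 to Fam234b (0.21) and Dnajc15 (0.22). Fam234b had a mean FPKM of 0.364, 6.04 and 5.67 in the 3 groups, beside 0.235, 4.36 and 5.57 of Runx2. Runx1 was nearest to Hdac10 (0.09), Tmem251 (0.12) and Nup153 (0.13), Runx3 to Tdrd3 (0.12), Ptpn3 (0.14) and Sept11 (0.14), Gata3 to Gm10382 (0.17), Xlr (0.19) and Ccl17 (0.22), and Lyl1 to Gpx4 (0.13), Zkscan14 (0.14) and Bid (0.18). The own profiles of Lyl1, Runx1 and Gata3 varied least, at 0.34, 0.60 and 0.65, so a small difference says less there.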

How the data were processed

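The authors sequenced total RNA from transduced mouse marrow cultures as paired-end reads of 50 bp, in 9 libraries that the sample labels place in 3 groups of 3. Per the labels, the authors used STAR 2.7.2a, Cufflinks 2.2.1 and GRCm38.p6, and the methods name the GENCODE M22 annotation; strand setting and reads with several alignments are not given in the sources used here. The authors deposited FPKM in 1 Cufflinks gene table per library, and gene-level values do not separate transcripts or promoters. The study's methods test counts with DESeq2, which was not run on FPKM.

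Values were compared as log2(FPKM + 1), a scale that understates the change of low genes. For each of the 3 pairs of groups, limma 3.58.1 under R 4.3.3 (lmFit, eBayes with a trend) was fitted to the pair's 6 libraries, without a block. It covered the 13493 genes whose FPKM reached 1 in 3 or more libraries, with Benjamini-Hochberg adjustment over them and a threshold of 0.05. Differences in share were given a two-sided exact permutation test. The members and lists were chosen with earlier results of these data known; named genes were the members, any gene of the partner and paralog lists, examples of the marker lists, and the 3 nearest protein-coding genes of each member, 1 of which is not reported here. Replicate numbers come from the labels and no source describes them as pairs. Depth was estimated from the step between low FPKM values, of which 85.6% to 88.5% came out whole within 0.1, and a level of 3 fragments covers counting error only. Alternatives were a pseudocount of 0.1, no filter, 2 other scalings, 1 fit of all libraries, array weights, a replicate block and leaving out each library. Promoter windows are from RefSeq.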

Additional observations from a re-analysis of the deposited data

How the results depend on the processing

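Of 351 refits of a member's log2 change, 298 kept direction and call, 45 lost the call, 5 gained it and 3 turned direction. The 3 were Runx1 in NUP98-NSD1 against NRASG12D (-0.16 after median-ratio scaling and -0.16 after quantile normalization) and Lyl1 in NUP98-NSD1+NRASG12D against NRASG12D (-0.09 after quantile normalization), none of them past the threshold in either form. Fitting all 9 libraries together left 3 of 6 members called in NUP98-NSD1 against NRASG12D; in that fit the groups share 1 spread. With no filter on low values 0 of 6 members were called in NUP98-NSD1+NRASG12D against NUP98-NSD1, and 6 had an unadjusted p under 0.05 by limma.

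Leaving out 1 library gave 5 to 7 members called in NUP98-NSD1 against NRASG12D, 6 to 9 in NUP98-NSD1+NRASG12D against NRASG12D and 0 to 6 in NUP98-NSD1+NRASG12D against NUP98-NSD1. Between the groups with the fusion, the difference in the share of Gata1 ran from -2.12 to 0.217 percentage points, and was positive without NUP98-NSD1+NRASG12D replicate 1, and that of Runx1 from -4.53 to 0.845, positive without replicate 3. Against NRASG12D the shares kept their sign.

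After removal of the group means, same-numbered libraries correlated by -0.0669 to 0.0207, -0.059 to 0.0613 and -0.177 to 0.16 in the 3 comparisons, so the numbers were not taken as pairs. A replicate block called 6, 8 and 6 members and changed no member's call, and in NUP98-NSD1+NRASG12D against NRASG12D it called 4 of 6 erythroid genes higher; the differences in share are the same by construction, with sign-flip permutation p of 0.25 to 1 where 0.25 is the smallest possible. All genes called went from 7036, 5173 and 1162 to 6864, 4531 and 801. FPKM of below about 1 are damped by the pseudocount, and with 3 libraries a group the shares cannot reach an exact p below 0.1.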
